A study of Chlamydomonas reinhardtii with 9 samples.

Results

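The cells described here are the weakly responding cells within iron-starved (Fe−) cultures of Chlamydomonas reinhardtii, that is, the cells that carried the smallest share of iron deficiency transcripts in libraries where iron had been withheld. They were taken from both Fe− libraries of strain CC-5390. Every cell with at least 1000 unique molecular identifiers (UMIs, each counting 1 captured transcript molecule) was thinned to 1000 randomly drawn UMIs, and the UMIs of the 100 genes of the study's iron deficiency list were counted among them. The study had drawn that list from bulk RNA-seq of other CC-4532 cultures. The 10% of cells of a library with the fewest such UMIs are called weak, and the 50% with the most are called strong. This gave 951 weak and 4755 strong cells of 9511 in experiment 1, and 811 weak and 4055 strong cells of 8110 in experiment 2. Together, 1762 weak cells stand among 73141 cells of the whole series.

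The study profiled batch cultures by droplet-based single-cell RNA-seq in 9 libraries. CC-5390 is a cell wall-deficient strain (cw15 arg7-8::ARG7), and the strain CC-4532, used here for comparison, has a cell wall. Fe− cells had spent 23 h in acetate medium (TAP) without added iron, and Fe+ cells had spent the same time in TAP with iron supplied as FeEDTA, all in constant light after an iron-replete pre-culture. The groups used here are CC-5390 Fe− (1 library in each of 2 experiments), CC-4532 Fe− (1 library, experiment 2) and CC-5390 Fe+ (1 library in each experiment). One library stands for 1 culture, so the number of replicates is the number of libraries, and cells of 1 library share its culture and its handling. The Fe− libraries of CC-5390 held 37133976 and 52436795 UMIs, with medians of 2574.5 and 5843 UMIs per deposited cell. They had 36 cell barcodes in common, of 11016 and 9291.

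Chlamydomonas meets iron shortage by raising proteins that capture iron at the cell surface and carry it inward. Secreted FEA proteins bind iron outside the plasma membrane, the ferric reductase FRE1 reduces it, and the multicopper oxidase FOX1 with the permease FTR1 takes it up. Starved cells also economize on iron, since the photosynthetic complexes, photosystem I above all, hold much of the cell's iron. The wall of this alga is made of hydroxyproline-rich glycoproteins, among them the VSP proteins and the pherophorins (PHC), and the iron deficiency list holds several of these beside the iron uptake genes.

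Iron deficiency transcripts chose the cells, so their levels describe the weak cells and support nothing. Weak cells had 0 to 8 list UMIs per 1000 in experiment 1 (median 7), against 18 to 113 in strong cells (median 26). In experiment 2 they had 0 to 2 (median 2), against 6 to 38 in strong cells (median 10). At the boundary, the last weak cell and the first cell outside both had 8 list UMIs in experiment 1 and both had 2 in experiment 2, where 530 cells shared that count. Such ties were ordered by the share over all UMIs of the cell, which at the boundary was 1.12% on both sides in experiment 1 and 0.442% on both sides in experiment 2. Between cells, the variance of the list count was 7.17 times that of binomial sampling of 1000 UMIs in experiment 1, and 3.23 times in experiment 2. This excess was not particular to Fe− cells of CC-5390. The variance was 6.40 and 3.47 times the binomial one in the CC-5390 Fe+ libraries and 5.09 times in the CC-4532 Fe− library.

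Part of a low count in 1000 UMIs is sampling. In cells with at least 2000 UMIs, a second draw of 1000 other UMIs was therefore counted. In these held-out UMIs, 921 weak cells of experiment 1 averaged 8.67 list UMIs per 1000, against 29.5 in 2953 strong cells. The 771 weak cells of experiment 2 averaged 3.58, against 9.64 in 3216 strong cells. These means differ 3.40-fold and 2.69-fold. Because ties had been ordered by all UMIs, the second draw had some part in the choice of the 226 and 410 weak cells at the boundary count. With the cells at the boundary counts left out (an alternative added after seeing the data), 706 and 377 weak cells averaged 8.64 and 3.77, against 29.6 and 9.60 in 2901 and 3173 strong cells, which is 3.42-fold and 2.54-fold. Of the weak cells, 36.7% and 27.2% were again among the lowest 10% by the held-out UMIs. Counts in both draws had a correlation of 0.878 over 6921 cells and 0.671 over 6944 cells of 1 library each, which describes these cells only. In the CC-5390 Fe+ libraries, split by the same rule, held-out means of weak and strong cells differed 3.33-fold and 5.06-fold. In the CC-4532 Fe− library they differed 3.95-fold.

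**Figure D1:**
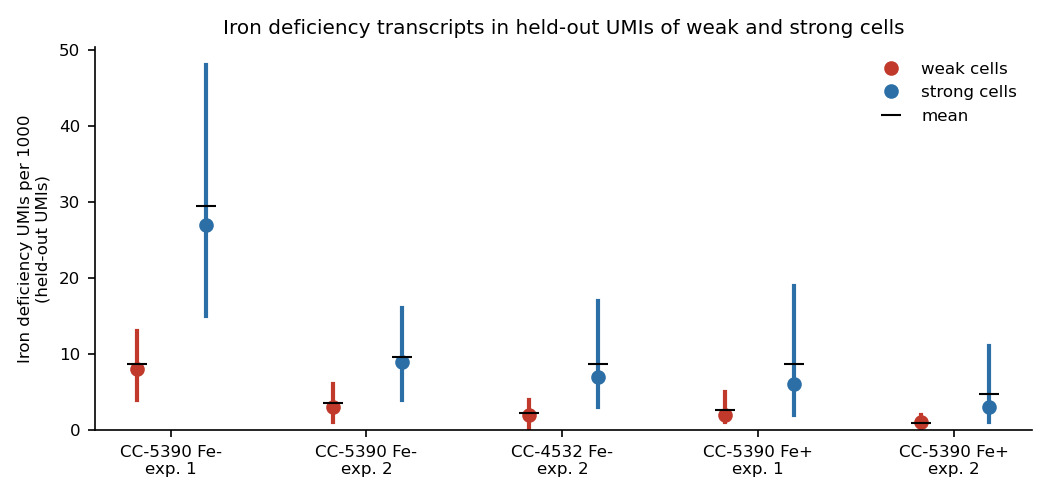
Iron deficiency list UMIs per 1000 held-out UMIs (a second draw, which entered the choice only through ties at the boundary counts), for weak (red, left) and strong (blue, right) cells of each library. Points are medians over cells, bars run from the 10th to the 90th percentile of cells, and black dashes are means; weak cells had medians of 8 and 3 in the CC-5390 Fe− libraries, against 27 and 9 in strong cells.

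Iron marker transcripts were nonetheless higher in weak Fe− cells than in Fe+ cells, given here as a description of 2 libraries each. The 12 list genes used here as iron markers (FEA1, FEA2, FRE1, FOX1, FTR1, TEF22, MSD3, CDJ3, CGLD27, CTP1, IRT1 and IRT2), genes of iron and metal uptake and others known to respond to iron shortage, together had 2.95 held-out UMIs per 1000 in weak Fe− cells of experiment 1, against 0.602 in all Fe+ cells of that experiment, a 4.90-fold difference. In experiment 2 they had 1.23, against 0.289 in Fe+ cells, a 4.25-fold difference. Strong Fe− cells had 6.44 and 2.71, so that weak Fe− cells lay between strong Fe− cells and Fe+ cells. For the whole list, the median weak cell had 8 and 3 held-out UMIs, against 4 and 2 in Fe+ cells, and 10.4% and 34.1% of weak cells were at or below the Fe+ median of their experiment.

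Single list genes differed in how far they were lower in weak cells. Of 93 list genes with at least 20 held-out UMIs in both libraries, 85 were lower in weak cells of both, 0 were higher in both and 8 went in opposite directions. The 12 iron marker genes were lower in weak cells of both except CGLD27, which stood at 84.5% and 123% of the strong level. FEA2, an iron assimilation protein secreted from starved cells, had 3.96 and 2.52 UMIs per 10000 in weak cells, against 5.78 and 4.15 in strong cells, or 68.6% and 60.6% of the strong level. In Fe+ cells it had 0.102 and 0.0535. FRE1 likewise stood at 59.9% and 75.5% of the strong level. FEA1, the most abundant of these genes in strong cells of both libraries, stood lower, at 10.4 and 3.36 UMIs per 10000 in weak cells against 33.7 and 8.47 in strong cells (31.0% and 39.6%). MSD3, a manganese superoxide dismutase, was at 77.7% of the strong level in experiment 1 but at 22.7% in experiment 2.

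Of 81 other list genes, 9 were below 25% of the strong level in both libraries, and of the 12 iron marker genes 0 were. Among the 9 are the wall protein genes PHC1, PHC21, PHC28, VSP1 and GAS28. PHC1 had 0.912 and 0.337 UMIs per 10000 in weak cells, against 21.0 and 1.76 in strong cells, or 4.34% and 19.1% of the strong level. PHC28 was at 6.66% and 22.5%, PHC21 at 8.41% and 15.1%, VSP1 at 3.70% and 11.5%, and GAS28, a wall protein gene known from gametes, at 4.35% and 12.5%. The other 4 are FAP212, a flagellar-associated protein gene (4.11% and 12.2%), and Cre17.g710300 (3.94% and 12%), Cre02.g095150 (5.96% and 15.4%) and Cre16.g693601 (9.86% and 13.1%), which have no name here. These 4 were chosen after their values were seen. Unlike the summed iron markers, all 9 genes were lower in weak Fe− cells than in Fe+ cells of both experiments. PHC1 had 3.19 and 2.5 UMIs per 10000 in Fe+ cells, and PHC28 had 2.11 and 1.35, against 1.73 and 1.09 in weak cells. In experiment 2 strong Fe− cells were also below Fe+ cells for PHC1 and Cre02.g095150, and above them for the others. For VSP1 that difference was small, at 0.339 in strong cells against 0.309 in Fe+ cells. Summed over held-out UMIs, the 12 iron marker genes differed 2.18-fold and 2.20-fold between strong and weak cells, and the other 88 list genes 4.04-fold and 2.95-fold. Some results below are also given for cells chosen by one of these parts of the list alone.

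**Figure D2:**
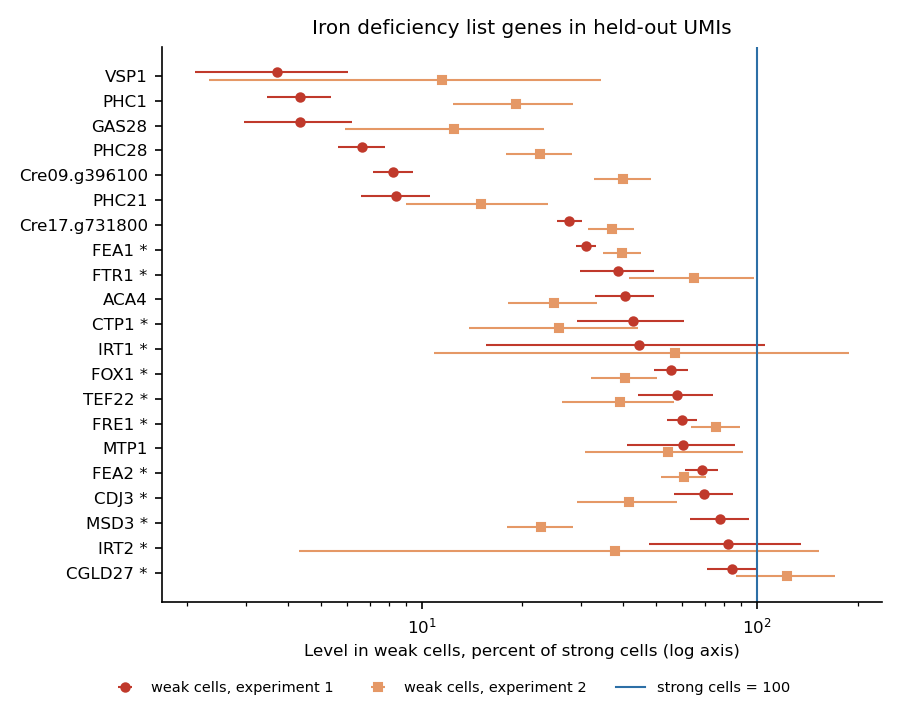
Level of single iron deficiency list genes in weak cells as a percentage of their level in strong cells (log axis), from held-out UMIs of the CC-5390 Fe− libraries of experiments 1 (circles) and 2 (squares); bars are exact 95% intervals of the ratio and cover counting error only. Asterisks mark the 12 iron marker genes; the wall genes VSP1, PHC1, GAS28, PHC28 and PHC21 stand at 22.5% or less in both libraries.

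Weak cells of the CC-5390 Fe− libraries had more UMIs than strong cells. Before thinning they had medians of 6580 and 8400 UMIs, against 2306 and 5221 in strong cells. Of the 10% of cells with the most UMIs, 36.0% were weak in experiment 1 and 16.0% in experiment 2, against 1.47% and 1.97% of the 10% with the fewest. Of the 10% with the most UMIs, 14% and 39.6% were strong. Yet at 1000 UMIs each, weak cells showed fewer genes, with 286 ± 39.2 and 209 ± 22.9 genes per cell (mean ± SD over cells), against 408 ± 51.8 and 314 ± 70.7 in strong cells. In the Fe+ libraries, cells chosen by the same rule lay closer in depth. Median UMIs were 2210 and 2421.5 in weak cells, against 2349 and 2157 in strong cells. In the CC-4532 Fe− library weak cells had fewer UMIs, with medians of 2773 against 3072.5. Weak cells also showed fewer genes in these libraries: 162 against 283 in CC-4532 Fe−, and 397 against 421 and 263 against 296 in Fe+. UMIs per cell therefore moved with the difference between weak and strong CC-5390 Fe− cells. In each comparison below all cells have 1000 UMIs. In 1 alternative, cells were instead chosen within each decile of UMIs per cell and all their UMIs were summed.

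Genes outside the list were compared between weak and strong cells as sums over cells, with library as a block (edgeR quasi-likelihood test, 4 sums, Benjamini-Hochberg adjustment at 0.05, 1 residual degree of freedom per gene before moderation across genes). Of 8467 genes tested, 181 (2.14%) passed, 119 higher (1.41%) and 62 lower (0.732%) in weak cells. These directions are relative to the typical gene. As a share of all UMIs outside the list, the median gene was lower in weak cells, by a log2 ratio of −0.70 in experiment 1 and −1.04 in experiment 2, and 73.7% of genes had a lower share in weak cells of both libraries. The normalization factors (TMM) take this shift out. Without them, 2 genes passed, both lower (Cre09.g394200 and Cre06.g258800), and 0 passed as higher, although 2409 genes then had an unadjusted p under 0.05. Fold changes from the fit are therefore given beside the shares. Without library as a block 0 genes passed (167 at an unadjusted p under 0.05), and leaving out any 1 of the 4 sums, without the block, gave 0 to 19. Cells chosen within deciles of UMIs per cell gave 28 genes higher and 75 lower. In that choice 2 of the 119 genes called higher passed again, LHCBM9 and Cre16.g667850, so that all other increases named below lost their call. Of the 62 called lower, 36 passed again. Of the 119 genes called higher, 101 also had a higher share in weak cells of both libraries, as had 352 of all genes tested (4.16%), and all 62 genes called lower had a lower share in both.

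**Figure D3:**
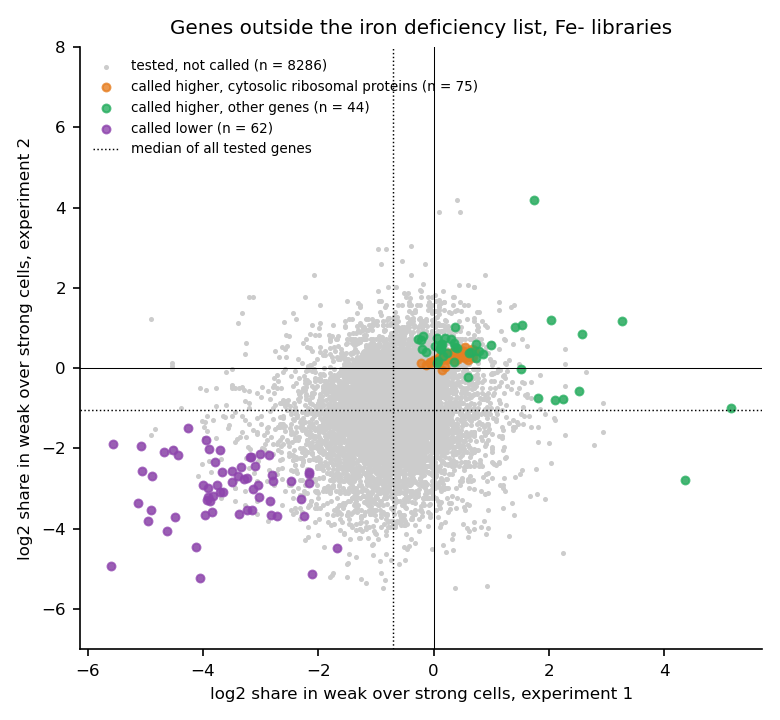
Log2 ratio of each gene's share of UMIs outside the iron deficiency list, weak over strong cells, in the CC-5390 Fe− libraries of experiment 1 (x axis) and experiment 2 (y axis) for 8467 tested genes. Dotted lines are the medians of −0.70 and −1.04; the 62 genes called lower lie to the lower left, and 75 cytosolic ribosomal protein genes called higher lie close together above 0 or near it.

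Transcripts for the cytosolic ribosome took more of the UMIs of weak cells. The 76 cytosolic ribosomal protein genes (RPGs) made up 62.4% of UMIs outside the list in weak cells of experiment 1 and 70.4% in experiment 2, against 48.1% and 56.5% in strong cells. All 76 were tested, and 75 rose relative to the typical gene while 0 fell. In 7 settings 0 of 76 passed: with cells chosen within deciles of UMIs per cell, without normalization factors, without the block, and without each of the 4 sums in turn. Their median fold change was 1.25 on the log2 scale, against −0.08 over all genes tested. In shares, 70 were higher in weak cells of both libraries, with medians of 0.40 and 0.32. Among the most abundant, RPL15 of the large subunit had 21305.6 and 19262.9 UMIs per 1000000 outside the list (CPM) in weak cells, against 16103.7 and 15057.7 CPM in strong cells, and its fold change was 1.26 ± 0.13 (log2 ± SE, adjusted p = 9.02e-19). RPS26, of the small subunit, had a fold change of 1.34 ± 0.14 (adjusted p = 7.38e-19), and RPS27E1 one of 0.99 ± 0.14 (adjusted p = 1.15e-09). The share of RPS27E1 had log2 ratios of 0.01 and 0.19.

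Some RPGs were among the genes with the 12 largest increases. RPP2, an acidic protein of the ribosomal stalk, had 14985.9 and 19201.2 CPM in weak cells, against 9269.81 and 14077.9 CPM in strong cells. These are ratios of 1.62 (95% interval of counting error 1.59 to 1.65) and 1.36 (1.34 to 1.39), and the fold change was 1.46 ± 0.14 on the log2 scale (edgeR adjusted p = 1.37e-22). RPL38 had 2179.54 and 12259.1 CPM in weak cells, against 1369.8 and 8782.86 in strong cells. RPL37 and RPL36 had share ratios between 1.31 and 1.53 in both libraries. In Fe+ libraries the RPG share was 37.9% and 60.3% in weak cells against 36.6% and 57.4% in strong cells. In the CC-4532 Fe− library it was 75.3% in weak cells against 63.1% in strong cells.

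The iron share has all UMIs in its denominator, so a larger ribosomal share alone lowers it. Of held-out UMIs outside RPGs, list transcripts made up 2.29% and 1.23% in weak cells, against 5.61% and 2.32% in strong cells. List transcripts chose these cells, so these values describe them only. How far the ribosomal share lowered the iron share was not tested. Cells were also chosen by the iron share outside RPG UMIs, an alternative added after seeing the data. In that choice RPGs made up 59.7% and 65.2% in weak cells against 50.2% and 60.1% in strong cells. Chosen within deciles of UMIs per cell, weak cells had 61.8% and 71.3%, against 52.7% and 61.0% in strong cells. In the choice within deciles LHCBM9 and Cre16.g667850 had fold changes of 3.01 and 2.10 on the log2 scale (edgeR adjusted p = 0.000268 and 0.00407). Chosen by the 12 iron marker genes alone, weak cells had 60.8% and 67.0%, against 48.4% and 57.9% in strong cells.

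Among photosynthesis genes, several light-harvesting genes rose in weak cells relative to the typical gene, and others did not. LHCBM3, one of these chlorophyll-binding proteins, had 33610.5 and 14625.0 CPM in weak cells, against 20248.0 and 9588.36 CPM in strong cells, which are ratios of 1.66 and 1.53. Its fold change was 1.55 ± 0.13 on the log2 scale (edgeR adjusted p = 5.6e-28), and 1.03 with adjusted p = 0.575 when cells were chosen within deciles of UMIs per cell. LHCBM1 had 35101.2 and 20040.8 CPM in weak cells, against 27518.5 and 13073.7 CPM in strong cells (fold change 1.37 ± 0.12, adjusted p = 6.39e-25). LHCBM7 had ratios of 1.23 and 1.64. Over all genes tested, 1.41% rose. Of 20 antenna genes, all tested, 6 rose and 0 fell, with a median fold change of 0.88 on the log2 scale. Within deciles of UMIs per cell 1 passed, LHCBM9. By the 12 iron marker genes alone 4 passed, and the antenna as a whole made up 7.71% and 3.65% in weak cells, against 8.44% and 3.43% in strong cells. In that choice the log2 share ratios of LHCBM1 were −0.08 and 0.16, and those of LHCBM7 −0.24 and 0.08. The 6 genes that rose in the main choice were LHCBM1, LHCBM3, LHCBM7, LHCBM9 and the photosystem I antenna genes LHCA2 and LHCA9, with fold changes of 1.24 ± 0.33 (adjusted p = 0.0126) and 1.10 ± 0.32 (adjusted p = 0.0342) for the photosystem I pair. The share of LHCA9 was lower in weak cells of experiment 1 (log2 ratio −0.28) and higher in those of experiment 2 (0.71). The antenna was not uniform in share: 5 of the 20 had a higher share in weak cells of both libraries and 6 a lower one, and LHCBM2 had log2 share ratios of −0.90 and −0.64 with a fold change of 0.11 ± 0.22 (adjusted p = 0.98).

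Other photosynthesis genes moved less evenly. Of 63, 56 were tested, 7 rose and 0 fell, where 1.41% of all genes tested rose. Their median fold change was 0.14. None of them passed within deciles of UMIs per cell (0 of 62 tested). PSBR, a small protein of photosystem II, had the largest increase among them, with 2228.21 and 2028.78 CPM in weak cells, against 1723.74 and 995 CPM in strong cells (fold change 1.58 ± 0.26, edgeR adjusted p = 2.49e-07). PSAF, the plastocyanin-docking subunit of photosystem I, had a fold change of 1.19 ± 0.26 (adjusted p = 0.00041). PSAE, also of photosystem I, had one of 1.19 ± 0.29 (adjusted p = 0.0029), but its share was lower in weak cells of experiment 1 (log2 ratio −0.19) and higher in those of experiment 2 (0.80). The summed share of these genes was 2.47% and 1.30% in weak cells, against 2.99% and 0.912% in strong cells, so that the libraries went in opposite directions. The other 4 that rose were PETN of the cytochrome b6f complex (1.33), ATPG and ATPD of the chloroplast ATP synthase (1.17 and 1.02) and PSAH of photosystem I (1.12). Of these, ATPD and PSAH had lower shares in weak cells of experiment 1 (log2 ratios −0.19 and −0.22). Plastocyanin, PCY1, which the study lists among N sufficiency genes, had a fold change of 1.21 ± 0.27 (adjusted p = 0.000547) with log2 share ratios of 0.12 and 0.53, and one of 0.82 (adjusted p = 0.632) within deciles of UMIs per cell.

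The remaining genes of the 12 largest increases have no name in the sources used here. Cre11.g467679 (v5.5 genome, chromosome 11, 1116860 to 1122975) had 2543.51 and 337 CPM in weak cells, against 1275.31 and 227 CPM in strong cells, and the largest fold change of the set, 1.67 ± 0.32 (log2 ± SE, edgeR adjusted p = 1.32e-05). Cre04.g214503 (chromosome 4, 1372105 to 1373976), Cre16.g660150 (chromosome 16, 2389241 to 2392978) and Cre06.g278270 (chromosome 6, 4385818 to 4387603) had share ratios of 1.72 and 1.35, 1.56 and 1.31, and 1.80 and 1.27. Within deciles of UMIs per cell the fold changes of these 4 genes were between 0.96 and 1.12, with adjusted p between 0.422 and 0.572. Outside the naming rule, and chosen after its values were seen, LHCBM9, an antenna gene known from nutrient-starved cells, had 44 and 8 UMIs in weak cells against 22 and 18 UMIs in strong cells. Its ratio was 9.76 (5.73 to 17.1) in experiment 1 and 2.20 (0.828 to 5.32) in experiment 2, where the interval includes equal shares.

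Genes called lower were fewer. Across the 62, the median log2 share ratio was −3.66 in experiment 1 and −2.90 in experiment 2. Chosen after their values were seen, for their many UMIs, Cre09.g394200 and Cre06.g258800 are given first. Cre09.g394200 (chromosome 9, 2043435 to 2049685) had 333 and 92.6 CPM in weak cells, against 5051.15 and 913 CPM in strong cells. The ratios were 0.066 (0.0589 to 0.0737) and 0.101 (0.0796 to 0.127), and the fold change was −2.74 ± 0.33 on the log2 scale (edgeR adjusted p = 5.08e-14). Cre06.g258800 (chromosome 6, 1382765 to 1388562) had 284 and 88.9 CPM in weak cells, against 4295.59 and 836 CPM in strong cells (fold change −2.71 ± 0.34, adjusted p = 8.9e-13). Weak cells were below strong cells for both genes in every library examined.

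Some genes named for wall proteins were among those that fell. No list of wall genes was tested, so these do not stand for wall genes at large. VSP3, a serine- and proline-rich protein of the vegetative wall, had 81.5 and 37.0 CPM in weak cells, against 1109.72 and 286 CPM in strong cells (fold change −2.50 ± 0.45, edgeR adjusted p = 2.33e-06). PHC5, a pherophorin gene and one of the 12 largest decreases, had 1 and 0 UMIs in weak cells, against 121 and 92 in strong cells. In experiment 1 its ratio was 0.0403 (0.00101 to 0.229), and in experiment 2 it was at least 6.19-fold lower in weak cells, taking 3 UMIs as the most that a count of 0 allows. Another pherophorin, PHC71, had ratios of 0.103 and 0.121, and MMP29, of a metalloproteinase family whose members include wall-digesting enzymes, had 0.221 and 0.160. VSP3, PHC71 and MMP29 were chosen after their values were seen. VSP3, PHC5, PHC71 and MMP29 are the 4 of 113 tested N sufficiency genes that fell, beside 3 that rose. Over all genes tested, 0.732% fell and 1.41% rose. Within deciles of UMIs per cell VSP3, PHC5 and PHC71 passed again, and MMP29 did not (adjusted p = 0.289).

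Most of the 12 largest decreases came from genes nearly absent from weak cells. Cre17.g696500 (chromosome 17, 49581 to 52364) had 5 and 1 UMIs in weak cells, against 1288 and 226 in strong cells, or 5.29 and 1.23 CPM against 279 and 56.4 CPM (fold change −4.84 ± 0.71, edgeR adjusted p = 1.07e-09). The ratios were 0.0190 (0.00614 to 0.0443) and 0.0219 (0.000552 to 0.123). Cre09.g388355 (chromosome 9, 2905893 to 2909768) had 10 and 3 UMIs in weak cells, against 1708 and 102 in strong cells. The nearby loci Cre09.g388351 and Cre09.g388353 also fell, with ratios of 0.0383 and 0.226 and of 0.0445 and 0.200, and whether reads of these neighbours were shared was not tested. Cre11.g481750 had 3 and 0 UMIs in weak cells, against 510 and 28 in strong cells.

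The other 8 had between 0 and 2 UMIs in the weak cells of either library. Cre08.g370900, Cre16.g654700, Cre07.g354750, Cre02.g142650, Cre10.g449000 and Cre14.g611400 had 254, 225, 179, 272, 114 and 358 UMIs in strong cells of experiment 1, against 1 or 2 in weak cells. In experiment 2 they had 25 to 47 UMIs in strong cells, against 0 or 1 in weak cells. Upper limits of their ratios in experiment 2 were 0.466 to 0.787. Cre02.g089650 had 0 and 1 UMIs in weak cells, against 115 and 27 in strong cells, which is at least 7.85-fold lower in experiment 1 and a ratio of 0.183 (0.00448 to 1.11) in experiment 2. Cre13.g590700 (chromosome 13, 3934959 to 3941740) had 0 UMIs in weak cells of both libraries, against 42 and 54 in strong cells, at least 2.87-fold and 3.64-fold lower. With cells chosen within deciles of UMIs per cell its log2 share ratios were −0.43 and −1.31, and by the 12 iron marker genes −0.54 and −0.31, and it passed in neither. Of the 12 largest decreases, Cre10.g449000 also lost its call within deciles of UMIs per cell (adjusted p = 0.263), and the other 10 passed again.

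Most genes called lower also had low shares in weak cells of the other cultures. Cells of the CC-5390 Fe+ libraries and of the CC-4532 Fe− library were split by the same rule. Of the 62 genes called lower, 52 had an at least 2-fold lower share in weak cells of both Fe+ libraries, against 4.8% of all genes tested, and 53 did so in the CC-4532 Fe− library, where 61.3% of all genes tested did. Cre09.g394200 had 244 and 138 CPM in weak Fe+ cells, against 1641.31 and 1155.04 CPM in strong Fe+ cells, and 144 CPM in weak CC-4532 Fe− cells, against 1228.08 CPM in strong ones. Cre17.g696500 had 2.57 and 10.7 CPM in weak Fe+ cells, against 105 and 49 CPM in strong Fe+ cells. By contrast Cre13.g590700 had 7.72 and 1.79 CPM in weak Fe+ cells, against 9.34 and 2.51 CPM in strong Fe+ cells.

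Whether a difference between weak and strong cells depended on iron was tested as an interaction across the CC-5390 Fe− and Fe+ libraries (edgeR, 8 sums, library as a block). Of 9858 genes 0 passed (0%), while 493 had an unadjusted p under 0.05, and DESeq2 also called 0 with 135 under 0.05 unadjusted. Among the genes with the largest changes, LHCBM3 had the smallest p, with an interaction of 1.04 ± 0.25 on the log2 scale (unadjusted p = 0.000114, adjusted p = 0.254). For Cre13.g590700 the adjusted p was 0.273. The count rested on both Fe− libraries: without that of experiment 1 the test called 14 genes, and without that of experiment 2 it called 97, with the lone Fe− library assumed to vary like the others. It called 72 when the 5% of cells with the most UMIs were left out.

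The genes called lower depended on which list genes chose the cells. When weak cells were chosen by the 12 iron marker genes alone, the 62 genes had median log2 share ratios of −0.60 and −0.97, near the −0.52 and −0.63 of all genes tested. When chosen by the other 88 list genes, the medians were −3.79 and −2.78, against −0.67 and −0.98. Cre17.g696500 had log2 share ratios of 0.60 and 0.07 by the iron marker genes, against −5.63 and −4.29 by the other list genes. PHC5 was low by both, at −3.25 and −3.47 and at −3.28 and −5.16. The fit on cells chosen by the iron marker genes called 123 genes higher and 10 lower, and 101 of the 119 and 1 of the 62 (PHC5) passed again in the same direction. A choice within deciles of UMIs per cell gave medians of −2.60 and −2.37 for the 62, against −0.48 and −1.06 for all genes tested.

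Cells were also ordered by iron share and cut into deciles, of which the lowest holds the weak cells. In experiment 1 RPGs took 62.4% of UMIs outside the list in the lowest decile, 52.4% in the fifth and 43.0% in the highest. In experiment 2 they took 70.4%, 63.7% and 47.5%. Cre09.g394200 had 333, 1520.2 and 11153 CPM in the same deciles of experiment 1, and 92.6, 334 and 1970.3 CPM in those of experiment 2. In the Fe+ library of experiment 1 it had 244 CPM in the lowest decile, 312 in the fifth, 2180.0 in the ninth and 4616.8 in the highest. Over the Fe+ deciles RPG shares stayed between 36.1% and 37.9% in experiment 1 and between 56.1% and 60.3% in experiment 2.

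**Figure D4:**
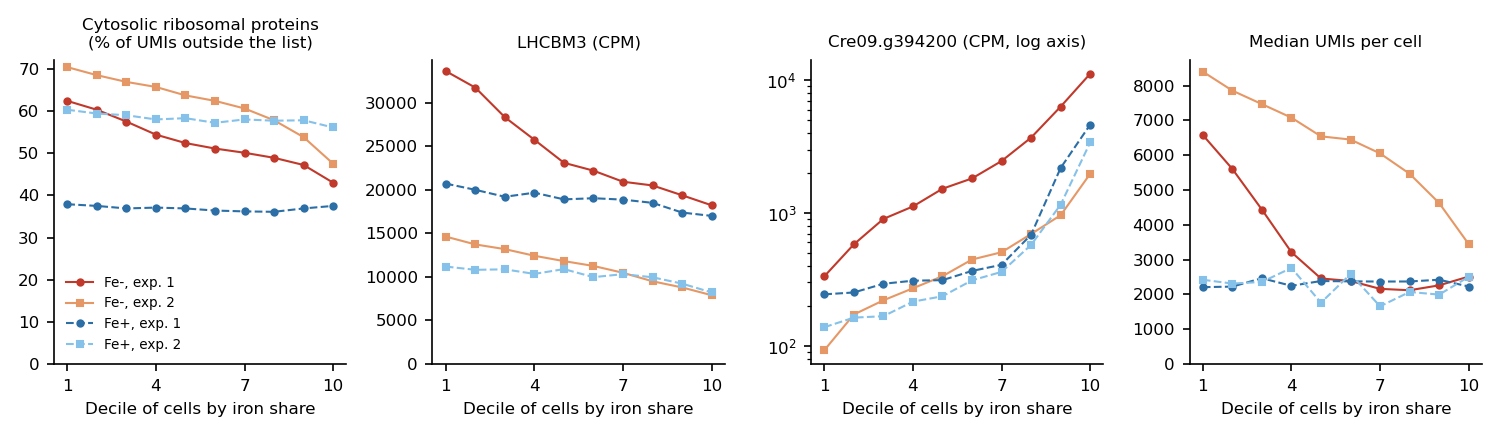
Profile over deciles of cells ordered by iron share, from lowest (1, the weak cells) to highest (10), in Fe− (solid) and Fe+ (dashed) CC-5390 libraries: RPG share of UMIs outside the list, CPM of LHCBM3, CPM of Cre09.g394200 (log axis) and median UMIs per cell. In Fe− cells RPG share and UMIs per cell are highest in the lowest decile, at 62.4% and 70.4% and at 6580 and 8400 UMIs.

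Organelle genome transcripts and genes of organelle ribosomes gave 0 calls in either direction, where 2.14% of all genes tested were called. The 74 chloroplast genome transcripts, rarely polyadenylated and thus poorly captured, made up 0.390% and 1.19% of UMIs outside the list in weak cells, against 1.04% and 1.76% in strong cells. Of 66 tested, 64 had a lower share in weak cells of both libraries, against 73.7% of all genes tested. The median fold change was −0.08, as over all genes, but the libraries went in opposite directions. After normalization the median log2 ratio was −0.72 in experiment 1 and 0.45 in experiment 2. When cells were chosen within deciles of UMIs per cell, the summed chloroplast genome transcripts had log2 ratios of −0.52 and −0.16. Without this they had −1.41 and −0.56. The 8 mitochondrial genome transcripts made up 0.00899% and 0.0196% in weak cells, against 0.0183% and 0.0466% in strong cells, and 7 were tested. Of the nuclear genes for mitochondrial ribosomal proteins, 15 of 29 tested had a lower share in weak cells of both libraries, and of the 41 for chloroplast ribosomal proteins 22 had.

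Flagellar genes, here only those with a flagellar symbol in the study's data sets, gave the lowest median fold change among the lists. It was −0.61 on the log2 scale, with 0 of 35 tested called. After normalization the median was −0.61 in experiment 1 but −0.10 in experiment 2. Median log2 share ratios were −1.39 and −1.09, against −0.70 and −1.04 over all genes tested. In the CC-4532 Fe− library the median was −1.37, against −1.39 over all genes tested. The most abundant flagellar genes, FAP154, FAP71 and RIB72, are also N sufficiency genes. All 35 tested genes had a lower share in weak cells of both libraries, against 73.7% of all genes tested. Their sum was 0.0269% and 0.0177% in weak cells, against 0.0758% and 0.0407% in strong cells. In Fe+ libraries it was 0.0367% and 0.0363%, against 0.0745% and 0.0677%. With cells chosen by the 12 iron marker genes the median log2 share ratios of flagellar genes were −0.02 and −0.59, against −1.39 and −1.09 in the main choice. Genes of the first diurnal phases (diurnal phase 0 to 0.5 h) made up 0.336% and 0.197% in weak cells, against 0.735% and 0.575% in strong cells, and 1 of 193 tested fell (Cre16.g685250). Of the genes of phase 1.5 to 2.5 h, 459 were tested, 3 rose and 2 fell, with a median of −0.08. Lipid synthesis genes (52 tested) had 0 calls. Over all genes tested, 1.41% rose and 0.732% fell.

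Cell division genes differed in direction between the libraries. Cell division genes, which mark DNA replication and mitosis, made up 0.113% of UMIs in weak cells of experiment 1, against 0.0821% in strong cells, but 0.0331% in weak cells of experiment 2, against 0.0849%. Over all genes tested 1.41% rose and 0.732% fell, and of 64 cell division genes tested 2 rose and 0 fell. These were CDKB1, a mitotic kinase gene, and RFA2/RPA30, a replication protein gene, each with a higher share in weak cells of experiment 1 (log2 ratios 2.11 and 1.52) and not in experiment 2 (−0.80 and −0.01), and neither passed within deciles of UMIs per cell (adjusted p = 0.679 and 0.48). By the 12 iron marker genes the list made up 0.0867% and 0.0481% in weak cells, against 0.101% and 0.0788% in strong cells. N deficiency genes made up 0.517% in weak cells against 0.365% in strong cells of experiment 1, and 0.50% against 0.771% in experiment 2. Cre07.g323800 carried the higher sum of experiment 1: without it the list made up 0.0834% and 0.118% in weak cells, against 0.104% and 0.452% in strong cells. Of 61 tested genes of the list, 41 had a lower share in weak cells of both libraries, as had 73.7% of all genes tested. N sufficiency genes made up 1.39% and 0.658% in weak cells, against 2.11% and 0.835% in strong cells. GPD2, a glycerol phosphate dehydrogenase gene of the N deficiency and lipid synthesis lists, had 202 UMIs in weak cells against 526 in strong cells of experiment 1. In experiment 2 it had 609 against 11077, and its log2 share ratios were 0.91 and −1.88. Of 61 tested N deficiency genes 1 rose, Cre07.g323800, where 1.41% of all genes tested rose. Its fold change was 1.38 ± 0.21 (edgeR adjusted p = 1.34e-08), and 1.00 (adjusted p = 0.555) within deciles of UMIs per cell.

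**Figure D5:**
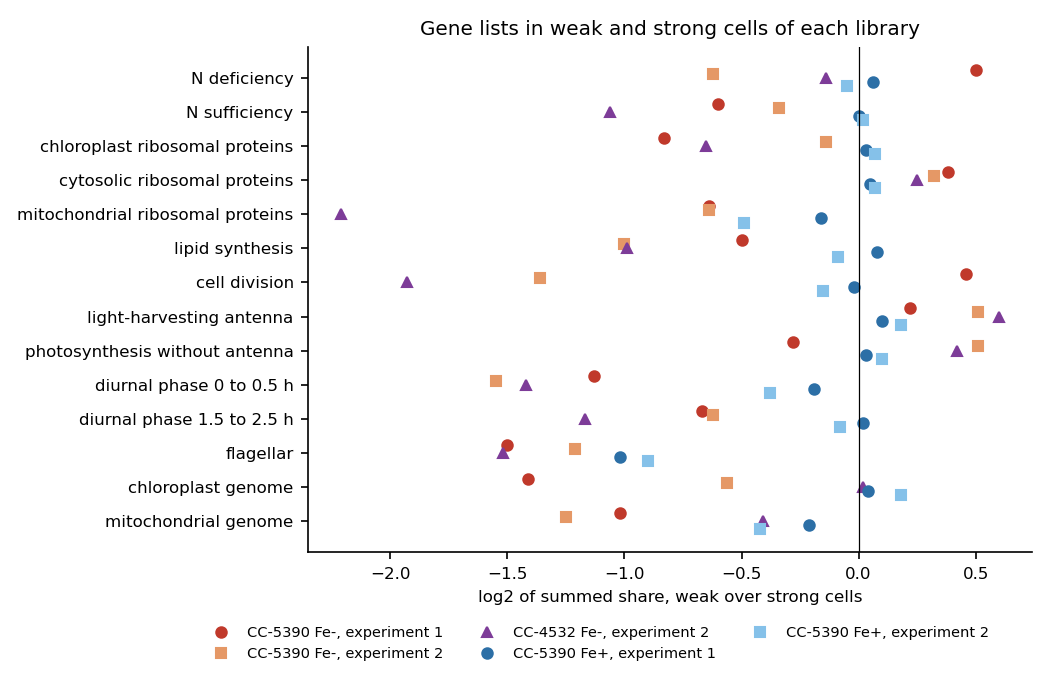
Log2 ratio of the summed share of each gene list, weak over strong cells, in 5 libraries, with iron deficiency genes removed from each list. Fe− libraries are in red, orange and purple and Fe+ libraries in blue. Cytosolic ribosomal proteins are above 0 in all 5, at 0.38 and 0.32 in the CC-5390 Fe− libraries. Flagellar genes are below 0 in all 5, as is the median log2 share ratio of all genes tested.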

How the data were processed

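The deposited values are whole-number UMI counts of 17893 genes in each cell, not normalized, which the authors made with cellranger count on genome version v5.5. Cells with at least 1000 UMIs were thinned without replacement to 1000 (seed 1). Weak (lowest 10%) and strong (highest 50%) cells were summed per library, list genes left out, and tested with edgeR 4.0.16 in R 4.3.3 (filterByExpr, TMM, quasi-likelihood F test, library as a block, Benjamini-Hochberg). DESeq2 1.42.0 was an alternative. Other steps used scipy 1.17.1, numpy 2.4.6 and matplotlib 3.10.9 under Python 3.11.15. The tests were tested on simulated data. The simulated counts held no shift of the typical gene between weak and strong cells, so they cannot show how the calls behave under such a shift. TMM factors were 1.04 and 0.521 for weak sums, and 1.781 and 1.036 for strong sums. Weak and strong sums of 1 library pair because they come from the same culture, and their deviations from the class means correlated at 0.548 over 8467 genes. With 2 libraries, p-values measure the spread between these only. Named genes were the 12 largest increases and 12 largest decreases that passed with 1 sign in both libraries and at least 20 UMIs in the higher class, the 3 most abundant genes of each list, and the iron deficiency genes that the study names by locus. Not all are printed, and 1 of the 12 largest increases is not reported here. Lists were the study's data sets. Flagellar genes were taken by symbol from these data sets and do not stand for flagellar genes at large. Other lists by symbol were not used here. Cells, members and lists were chosen with earlier results of these data known. Doublets were treated only by leaving out the 5% of cells with most UMIs. Ratio intervals are exact (Clopper-Pearson, 95%), and they and the floor of 3 counts cover counting error only. Positions come from RefSeq, matched for 17738 genes.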

Additional observations from a re-analysis of the deposited data

How the results depend on the processing

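The count of genes called between weak and strong cells was 181. It was 446 on all UMIs without thinning and 103 with cells chosen within deciles of UMIs per cell. With ribosomal protein genes left out it was 44, and without normalization factors 2. This last pair of settings was chosen after seeing the data, as were the choices by parts of the list and by the iron share outside RPG UMIs. The split was 119 higher and 62 lower, against 28 and 75 within deciles, 6 and 38 without ribosomal protein genes, 95 and 27 in DESeq2 (122 of 797 genes with an adjusted p) and 108 and 29 with list genes weighed equally (137 called). The fit with no replicate block called 0 genes (167 at an unadjusted p under 0.05), and leaving out 1 weak or strong sum, without the block and with the lone sum assumed to vary like the others, gave 0 to 19. Other settings called 122 to 221. The interaction called 0 genes, but 72 without the 5% of cells with most UMIs, 117 with cells chosen by 12 iron marker genes, and 0 to 97 without 1 library. Of the 24 genes with the largest changes, fold changes turned when cells were chosen by the 12 iron marker genes for Cre13.g590700 (0.12), Cre16.g654700 (0.80), Cre17.g696500 (0.98), Cre02.g142650 (0.24), Cre02.g089650 (2.10) and Cre14.g611400 (0.87), and that of RPL38 lay between −1.18 and 4.18 when 1 sum was left out. The cause was not tested. Measured on the UMIs that chose them, weak cells averaged 6.15 and 1.42 list UMIs per 1000, and strong cells 29.7 and 11.1. Weak cells gave 945152 and 809846 UMIs outside the list in all, so that a gene with 0 UMIs there may have had up to 3.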
